A study of Mus musculus with 18 samples.

Results

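The reprogramming factors Pou5f1 (which encodes Oct4), Sox2, Klf4 and Myc were followed through 18 Affymetrix expression arrays of mouse cells on their way to induced pluripotent stem cells (iPSC). Every probe set whose annotation names 1 of these 4 genes was taken, which gave 5 of the 40508 probe sets in the table: 1417945_at for Pou5f1, 1416967_at for Sox2, 1417394_at and 1417395_at for Klf4, and 1424942_a_at for Myc. The labels name the factors given to the cells by their initials: OCK is read here as Oct4, c-Myc and Klf4, and OSK as Oct4, Sox2 and Klf4. By this reading OCK cells received no Sox2 and OSK cells no Myc. The labels do not spell out the C, and whether it stands for c-Myc or another Myc family member cannot be settled from them, which bears on the Myc and Mycn values. The labels do not say by which vector the factors were delivered, whether any introduced copy was still active, or which cell type was reprogrammed.

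The OCK reprogramming cultures were wild-type (wt) or knockout (ko) for Tcf3, the former name of Tcf7l1, with a single array of each genotype from day 11, 15, 19, 22 and 26. Established clones comprised 2 OCK Tcf3 ko iPSC lines, 1 OSK Tcf3 wt iPSC line and 2 OSK Tcf3 ko iPSC lines, with no OCK wt iPSC line. A partial OCK iPSC clone, Tcf3 wt by its label, was collected on day 2 after a control siRNA (1 array) or after siRNA A or B against Tcf3 (1 array each), so these 3 arrays come from 1 clone. In every comparison of OCK with OSK outside the established clones, the factor set and the stage of the cells cannot be told apart. The partial clone and the wt cultures differ from the OCK ko clones in Tcf3 genotype as well as in stage. The ko lines are numbered as separate clones, each with a single array, while nothing in the labels says that the partial clone arrays, or the culture arrays of different days, came from separate cultures. There, p-values cover only how far these arrays differ, which can be technical or, where culture days are pooled, change over time.

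These transcription factors work together in pluripotent cells. Oct4 and Sox2 bind side by side on composite DNA elements and switch on the pluripotency network, in which the genes for Oct4 and Sox2 are themselves targets. Klf4 is a zinc finger factor that binds GC-rich boxes in many of the same control regions, and Myc binds E-boxes with its partner Max and drives growth and ribosome synthesis. In reprogramming, introduced copies start the process, while the cell's own copies of Pou5f1 and Sox2 come on late. A probe set can read RNA of an introduced copy only where that copy contains the probed sequence. The positions of the probes are not analysed here, so levels below are the sum of whatever each probe set reads, and in bulk RNA fewer cells of a type and less RNA per cell cannot be told apart.

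The members' own promoters were searched for kinds of element that these factors are known to bind. The 250 bases before the start site are printed for 3 of the 4 genes from RefSeq (build GRCm38.p6), with matches to 5 short motifs in capitals. The motifs were chosen with these sequences in view, and both strands were searched: the octamer ATGCAAAT, its core ATGCAAA (which every octamer contains), the Sox motif ACAAAG, the GC box GGGCGG and the E-box CACGTG.
Pou5f1, chr17:35505782-35506031, plus strand: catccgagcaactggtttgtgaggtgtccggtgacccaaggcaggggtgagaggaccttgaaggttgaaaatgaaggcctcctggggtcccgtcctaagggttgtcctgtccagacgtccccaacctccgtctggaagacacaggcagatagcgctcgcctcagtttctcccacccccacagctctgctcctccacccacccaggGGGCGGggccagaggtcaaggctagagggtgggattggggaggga
Sox2, chr3:34649745-34649994, plus strand: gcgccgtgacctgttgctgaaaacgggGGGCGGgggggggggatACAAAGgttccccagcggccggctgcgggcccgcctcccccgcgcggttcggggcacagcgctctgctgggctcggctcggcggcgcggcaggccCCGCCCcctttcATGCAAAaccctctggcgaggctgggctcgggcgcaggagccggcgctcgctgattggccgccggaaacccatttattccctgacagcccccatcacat
Klf4, chr4:55532476-55532725, minus strand: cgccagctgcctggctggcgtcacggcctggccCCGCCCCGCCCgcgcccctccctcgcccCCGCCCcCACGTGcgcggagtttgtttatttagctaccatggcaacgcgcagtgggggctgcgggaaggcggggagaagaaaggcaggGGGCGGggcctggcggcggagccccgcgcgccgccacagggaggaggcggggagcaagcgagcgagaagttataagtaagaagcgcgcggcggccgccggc
Sox2 had 1 octamer core, which starts 99 bases before the start site, and 1 Sox motif at 206 bases. Pou5f1 had 1 GC box at 45 bases, Sox2 had 2, and Klf4 had 4 (of which the 2 farthest from the start share a base) and 1 E-box at 182 bases. No full octamer matched in these 3 windows. Over 32841 mouse promoter windows of the same length, 1.6% held the octamer, 4.13% its core, 16.5% the Sox motif, 32.7% the GC box and 6.02% the E-box. A match is a description of the letters and not evidence of binding. A second RefSeq start of Pou5f1 (chr17:35508557-35508806) held none of the motifs.

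All values are log2 signals from RMA, a method that corrects and normalizes the arrays together and summarizes the probes of a probe set. Levels under 5.64 (50 on the linear scale) had been set to that floor, so a value at the floor is an upper limit. Array medians lay between 5.85 and 5.94. Markers of pluripotent cells (Nanog, Zfp42, Esrrb, Dppa5a, Fbxo15, Tdgf1 and Utf1) were above the floor in 7 of 7 cases on each established clone. Zfp42 and Esrrb were at the floor on all 5 wt culture arrays and on the control siRNA array of the partial clone. The other 5 markers were above the floor on that control array, as were 4 or 5 of the 7 on each wt culture array. The mean of the 7 was 7.68 with control siRNA, against 12.3 to 12.6 on the established clones, which goes with the label of partial reprogramming. The 8 fibroblast markers were all above the floor on every culture array, with a mean log2 signal from 10.4 to 12.1, against 6.28 to 7.37 on the established clones. Tcf7l1 read 10.68 in the OSK wt clone, 9.49 and 9.37 in the OSK ko clones and 9.45 and 9.56 in the OCK ko clones. It read 9.93 with control siRNA, 8.80 with siRNA A and 8.77 with siRNA B, and was lower in the ko than the wt culture on each day, so the order follows the labels while the knockouts stay well above the floor. Whether its probe set lies in the deleted part is not known here. OCK ko clone 1 stands apart from the other established clones in Myc, and results that rest on it are given with and without it.

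**Figure D1:**
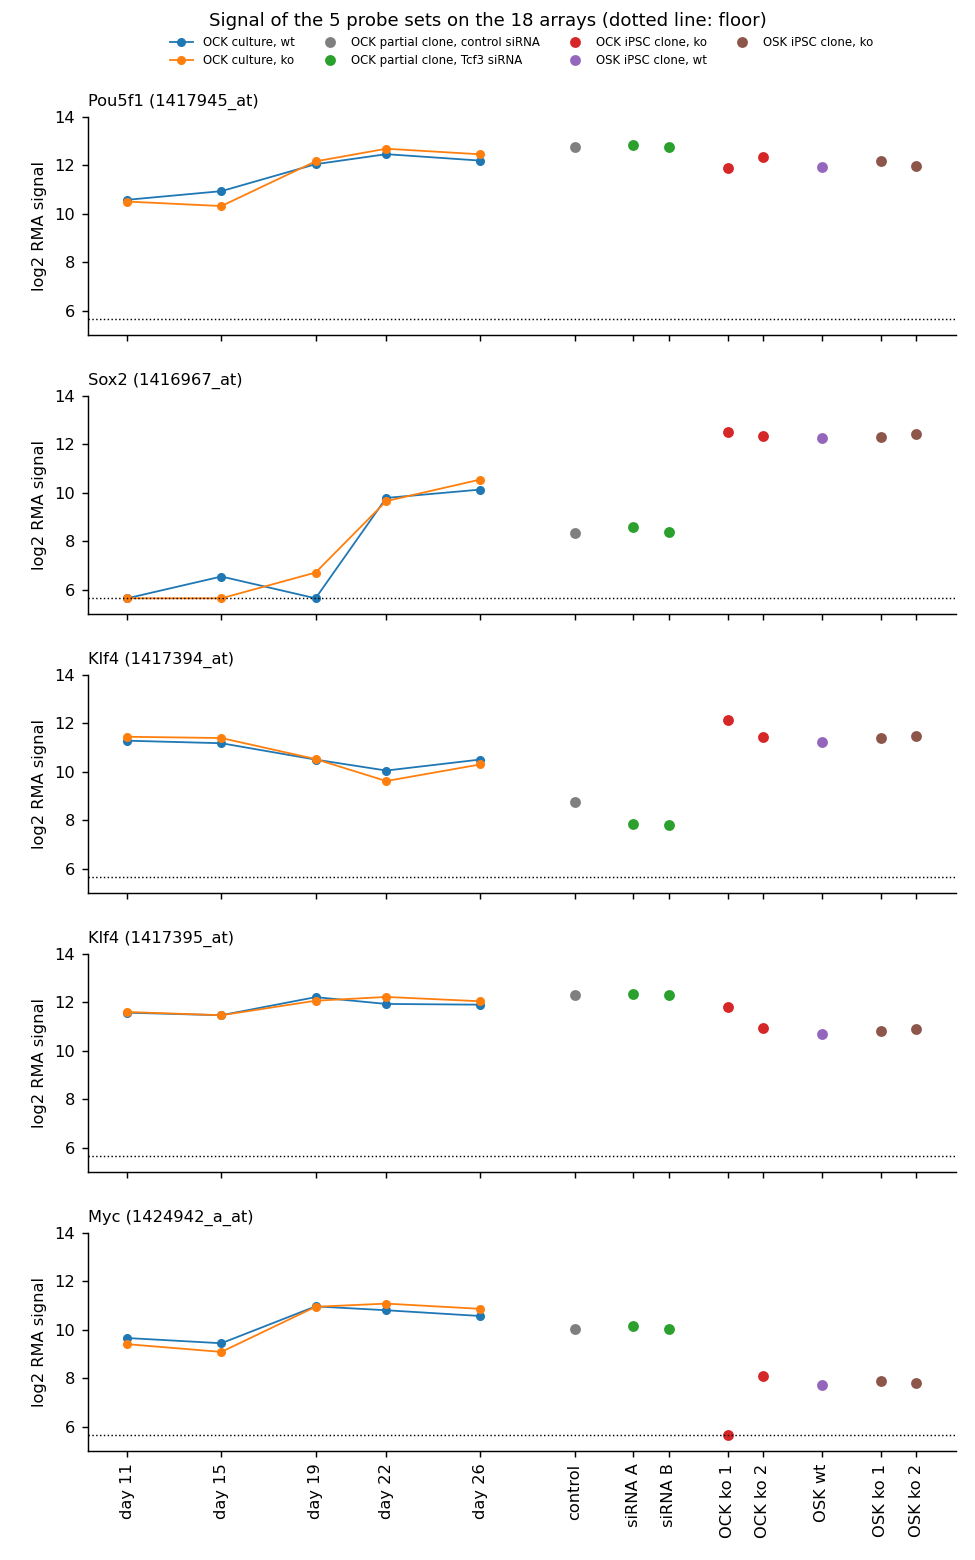
Log2 RMA signal (y axis, the same range in each panel) of the 5 probe sets on the 18 arrays (x axis: culture days with wt and ko as lines, then the partial clone with control siRNA, siRNA A and siRNA B, and the established clones). Each point is 1 array and the dotted line is the floor of 5.64. Sox2 is at or near the floor until day 19, the 2 Klf4 probe sets run in opposite directions, and OCK ko clone 1 is at the floor for Myc.

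Pou5f1 was above the floor on all 18 arrays and highest in the partial clone. It read 11.93 in the OSK wt clone, 12.18 and 11.99 in the OSK ko clones, and 11.90 and 12.35 in the OCK ko clones. The partial clone read 12.76 with control siRNA, 12.83 with siRNA A and 12.78 with siRNA B. All 3 partial clone values lay above every established clone. The share of all probe sets that set groups of arrays apart in this way was not counted, here or for the members below. In the cultures the wt arrays read 10.58, 10.94, 12.05, 12.46 and 12.20 from day 11 to day 26, and the ko arrays 10.51, 10.32, 12.17, 12.69 and 12.46. The first 2 days were below every established clone and days 22 and 26 were within or above their range.

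The partial clone exceeded the OSK clones in Pou5f1 by 0.75 ± 0.13 (SE, log2; adjusted p = 0.0031, limma with Benjamini-Hochberg adjustment over all probe sets), which is 1.69-fold. It exceeded the OCK ko clones by 0.66 ± 0.15 (adjusted p = 0.00971, limma). Over all cultures the difference from the OSK clones was −0.40 with a 95% interval from −1.44 to 0.64 and was not called (adjusted p = 0.529, limma). That mean joins days on both sides of the clones: with days 22 and 26 alone the difference was 0.42 (adjusted p = 0.0294, limma, against 0.0294 to 0.837 over the alternatives tried). Pou5f1 rose over time by 0.149 ± 0.027 per day (a fitted slope). The measured change from day 11 to day 26 was 1.62 in wt and 1.95 in ko cultures. The greatest step came between days 15 and 19, when it rose by 1.11 in wt and 1.85 in ko cultures. The mean step of 1.48 was larger in size than that of 98.9% of the probe sets above the floor on every culture array.

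Sox2, the factor that OCK cells had not been given, separated the established clones from every other array. Its level was 12.26 in the OSK wt clone, 12.30 and 12.42 in the OSK ko clones, and 12.50 and 12.33 in the OCK ko clones. The 3 partial clone arrays read 8.35 with control siRNA, 8.60 with siRNA A and 8.37 with siRNA B. The wt cultures read 5.64 (floor), 6.54, 5.64 (floor), 9.79 and 10.13 on the 5 days. The ko cultures read 5.64 (floor) on days 11 and 15, then 6.71, 9.66 and 10.55. No partial clone or culture array reached the level of any established clone, and 13 of the 15 OCK arrays lay below every OSK array.

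The established OCK and OSK clones did not separate in Sox2: the difference of the ko clones was 0.058 with a 95% interval from −0.24 to 0.36 (adjusted p = 0.837, limma). The partial clone was lower than the OSK clones, at −3.88 ± 0.10 (14.8-fold, adjusted p = 2.52e-06, limma), a difference matched or passed in size by 0.758% of the probe sets tested. The cultures were lower too, at −4.73 ± 1.10 (adjusted p = 0.00181, limma), or −2.29 with days 22 and 26 alone. Arrays at the floor make the first value a limit in size. Against the OCK ko clones the cultures were lower, at −4.82 ± 1.30 (adjusted p = 0.00585, limma). That call was lost without OCK ko clone 1 (a difference of −4.73, adjusted p = 0.0553, limma), the highest adjusted p over its alternatives.

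Sox2 rose by 0.344 ± 0.060 per day in the cultures, and only 0.016% of the probe sets tested changed as fast. Of that rise, 4.15 in wt and 2.95 in ko cultures came between days 19 and 22. The first value is a lower limit, since the day 19 wt array was at the floor. Sox2 is also a gene of neural progenitors, and neural markers moved over the same days. The mean of the 7 neural markers (Tubb3, Dcx, Elavl4, Pax6, Sox1, Map2 and Stmn3) was 7.08 in wt and 7.03 in ko cultures on day 19, 8.39 and 8.66 on day 22, and 9.78 and 7.23 on day 26. The pluripotency markers went from 6.86 and 7.41 on day 19 to 8.11 and 8.51 on day 22. The part of either cell type in the Sox2 rise was not tested.

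The 2 Klf4 probe sets, which the platform annotates with a single GenBank sequence, moved in opposite directions. 1417394_at read 11.25 in the OSK wt clone, 11.38 and 11.47 in the OSK ko clones, and 12.13 and 11.45 in the OCK ko clones. It read 8.76, 7.83 and 7.81 in the partial clone with control siRNA, siRNA A and siRNA B. Every partial clone array was below every other array of the series. In the cultures this probe set read 11.28, 11.18, 10.50, 10.05 and 10.51 in wt and 11.45, 11.39, 10.52, 9.62 and 10.30 in ko from day 11 to day 26. Days 11 and 15 thus lay near the OSK clones and the later days below them.

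1417395_at gave the reverse picture. It read 10.69 in the OSK wt clone, 10.83 and 10.91 in the OSK ko clones, and 11.79 and 10.94 in the OCK ko clones. The partial clone read 12.32 with control siRNA, 12.36 with siRNA A and 12.32 with siRNA B. The wt cultures read 11.57, 11.47, 12.21, 11.93 and 11.90, and the ko cultures 11.60, 11.47, 12.07, 12.22 and 12.04. All 15 OCK arrays lay above all 3 OSK arrays, although OCK ko clone 2 did so by a small margin (10.94 against 10.91). How many probe sets of the table separate the arrays so was not counted. Against the OSK clones, 57.7% of probe sets passed in the partial clone and 56.4% in the cultures.

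Each Klf4 probe set passed the test against the OSK clones in the partial clone, with opposite signs. 1417394_at was lower, at −3.23 ± 0.17 (9.39-fold; adjusted p = 2.18e-05, limma), and 1417395_at was higher by 1.52 ± 0.21 (2.87-fold; adjusted p = 0.00101, limma). Against the OCK ko clones, which had received the same factors, they differed by −3.65 ± 0.19 and 0.97 ± 0.23 (adjusted p = 2.77e-05 and 0.0132, limma). Stage and Tcf3 genotype both differ there and cannot be told apart. If the 2 probe sets were averaged into 1 value for the gene, the Klf4 difference from the OSK clones was −0.85 (adjusted p = 0.0112, limma), so the sign of a single Klf4 value depends on the choice of probe set. In the cultures 1417395_at was higher than in the OSK clones by 1.04 ± 0.19 (adjusted p = 0.000306, limma). 1417394_at differed by −0.68, with an interval from −1.40 to 0.030, and was not called (adjusted p = 0.0961, limma), while on days 22 and 26 alone it was at −1.25 (adjusted p = 0.000801, limma). Over their alternatives these adjusted p ranged from 8.03e-05 to 0.317 for the former, the highest when the probe sets were averaged, and from 0.000801 to 0.228 for the latter.

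**Figure D2:**
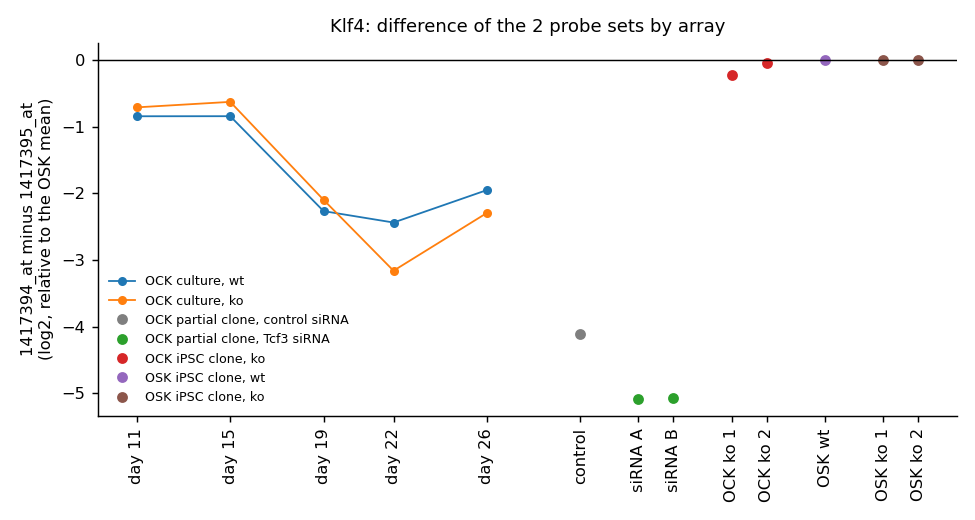
Difference between Klf4 probe sets 1417394_at and 1417395_at on each array, as log2 relative to its mean over the 3 OSK clones (y axis), for culture days, partial clone arrays and established clones (x axis, 1 point per array). The 5 established clones lie between −0.22 and 0.0061, the cultures between −3.16 and −0.63, and the partial clone between −5.08 and −4.11.

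The divergence of the 2 probe sets was tested as a difference within each array, together with all other pairs of probe sets of 1 gene that were above the floor on every array. On the 3 OSK clones that difference, taken relative to its OSK mean, lay between −0.0057 and 0.0061. It was −0.22 and −0.049 in OCK ko clones 1 and 2. The partial clone read −4.11 with control siRNA, −5.08 with siRNA A and −5.07 with siRNA B. Wt cultures went from −0.84 on days 11 and 15 to −2.27, −2.44 and −1.95, and ko cultures from −0.71 and −0.63 to −2.10, −3.16 and −2.29. The established clones and the other arrays did not overlap. How many pairs of other genes also did not overlap was not counted.

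In the partial clone against the OSK clones, the Klf4 pair diverged by 4.75 ± 0.10 (as −4.75, with a 95% interval from −4.98 to −4.52; adjusted p = 2.23e-06, limma). Of 7879 pairs, 56.1% passed that test, so a divergence as such is common between these stages. By size, 3 pairs were at least as far apart, Klf4 itself and 2 pairs of Mycn, and the Klf4 value was 11.7 times the median size. In 7.82% of pairs both probe sets were called and in opposite directions, as here. Against the OCK ko clones the divergence was −4.62 ± 0.11, where 52.3% of pairs passed. The cultures differed from the OSK clones by −1.72 ± 0.45 (adjusted p = 0.00422, limma; 58.3% of 7046 pairs passed) and from the OCK ko clones by −1.59 ± 0.53 (adjusted p = 0.0197, limma; 53.6% passed). That last call was lost without OCK ko clone 1 (−1.67, adjusted p = 0.0883, limma) or clone 2 (−1.51, adjusted p = 0.126, limma, the range over its alternatives being 0.0189 to 0.126). Between the OCK and OSK ko clones the pair differed by −0.13 with an interval from −0.42 to 0.15 (adjusted p = 0.667, limma), where 0.178% of pairs passed.

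**Figure D3:**
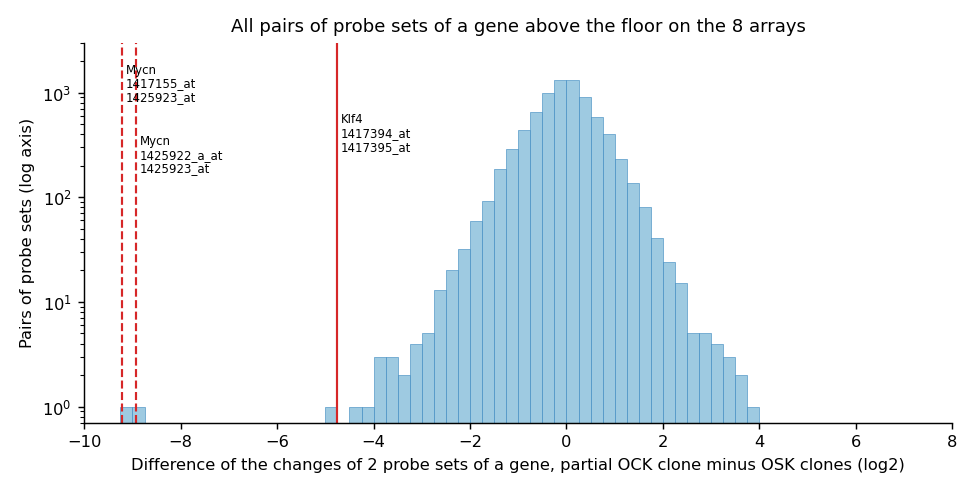
Number of probe set pairs of 1 gene (y axis, log scale) by the difference of their changes between the partial OCK clone and the OSK clones (x axis, log2, bins of 0.25), over 7879 pairs above the floor on the 8 arrays. The solid line is Klf4 at −4.75 and the dashed lines are the pairs of Mycn at −8.93 and −9.22.

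Over culture time the pair moved apart by 0.128 per day (as −0.128 ± 0.031; adjusted p = 0.0293, limma; 13.3% of 8240 pairs passed). Only 0.364% of pairs changed as fast. The mean step was greatest between days 15 and 19, when 1417394_at moved by −0.68 in wt and −0.87 in ko cultures and 1417395_at by 0.75 and 0.60. The call was lost without day 11 (−0.132, adjusted p = 0.233), without day 15 (−0.108, adjusted p = 0.113) and without day 22 (−0.106, adjusted p = 0.0612, all limma).

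By this reading of the labels Myc was supplied to OCK cells only. Its probe set was higher in the cultures and the partial clone than in any established clone. The OSK wt clone read 7.71 and the OSK ko clones 7.88 and 7.82. OCK ko clone 2 read 8.09, and OCK ko clone 1 was at the floor of 5.64. The partial clone read 10.04 with control siRNA, 10.17 with siRNA A and 10.02 with siRNA B. The wt cultures read 9.66, 9.44, 10.96, 10.80 and 10.57 from day 11 to day 26 and the ko cultures 9.40, 9.08, 10.95, 11.08 and 10.86. In all, 14 of the 15 OCK arrays lay above every OSK array and 1, OCK ko clone 1, below.

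Myc had a standard deviation of 0.084 within the partial clone arrays and of 0.084 within the OSK clones. It was 1.73 over the OCK ko clones, with clone 1 at the floor, and these share the fit and its error. The partial clone exceeded the OSK clones in Myc by 2.27 ± 0.57 (4.83-fold; adjusted p = 0.0138, limma). This call was lost without siRNA A (adjusted p = 0.0563), without siRNA B (adjusted p = 0.0519) and with the wt arrays alone (adjusted p = 0.105, all limma), while the difference stayed between 2.22 and 2.35 and the adjusted p ranged from 4.52e-06 to 0.141. The cultures exceeded the OSK clones by 2.48 ± 0.50 (5.56-fold; adjusted p = 0.000613, limma) and did so in all 10 alternatives in which Myc was tested, with an adjusted p of at most 0.0272. Against the OCK ko clones the fitted differences, 3.21 ± 0.64 for the partial clone and 3.41 ± 0.59 for the cultures, include a clone at the floor. Without clone 1 they were 1.99 and 2.19. Within the cultures Myc stepped up by 1.52 in wt and 1.86 in ko between days 15 and 19, the interval in which Pou5f1 rose, and the change over all days was 0.110 ± 0.030 per day. Markers of other cell types moved over the same interval. The mean of 6 macrophage markers went from 8.11 to 6.79 in wt and from 8.26 to 6.90 in ko cultures, that of the 8 fibroblast markers from 11.88 to 11.17 and from 12.03 to 11.06, and that of 7 keratinocyte markers from 6.92 to 7.96 and from 7.28 to 7.30. Trophoblast markers stayed at or below 6.65 except on the day 26 ko array (8.35). Ptprc, Lyz2, C1qb and Adgre1 were at the floor on every established clone. The part of these cell types in the steps of Myc, Pou5f1 and Klf4 was not tested.

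The pair of OCK ko clones disagreed on Myc. Clone 2 exceeded clone 1 by at least 2.45 log2 units, and only 0.0618% of 22670 probe sets were as far apart between these clones. In the same clone 1, both Klf4 probe sets were higher than in clone 2, by 0.69 and 0.85, Pou5f1 was at −0.46 and Sox2 was higher by 0.17. The OSK ko clones differed by 0.063 in Myc. Genes next to Myc were looked at after this was seen. Pvt1, a non-coding RNA gene beside Myc, read 8.32 in clone 1 and 8.34 in clone 2, and Cyrib 12.50 and 12.30. Nsmce2 read 10.28 and 10.09. Trib1 was lower in clone 1, at 5.93 against 6.41, as was Lratd2, at 6.44 against 6.74. Across all probe sets, those at the floor included, the OCK ko clones correlated at r = 0.988, against 0.998 for the OSK ko clones.

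No member was called between OCK and OSK in the established ko clones (0 of 5, with 0 at an unadjusted p under 0.05, limma), where 7.57% of probe sets were. The fitted differences were 0.040 for Pou5f1 (interval −0.36 to 0.44), 0.36 (−0.15 to 0.88) and 0.50 (−0.12 to 1.12) for the Klf4 probe sets and −0.98 (−2.67 to 0.70) for Myc. The sign of the last changed with the clone left out: without clone 1 Myc was higher by 0.24 in the OCK clone (adjusted p = 0.199, limma), and without clone 2 it was at −2.21 or lower, clone 1 being at the floor (adjusted p = 0.000848, limma). Without clone 2, Klf4 passed with both probe sets too, at 0.71 and 0.92 (adjusted p = 0.00679 and 0.00313, limma). The lone clone is then assumed to vary like the other groups, and over all alternatives the adjusted p ranged up to 1 for Myc, 0.911 and 0.82 for Klf4.

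The counts of members called in the other comparisons stand against a table in which most probe sets passed. All 5 passed between the partial clone and the OSK clones, where 57.7% of probe sets passed, and all 5 between the partial clone and the OCK ko clones, where 54.6% passed. In the cultures 3 of 5 passed against the OSK clones (Sox2, Klf4 1417395_at and Myc; 56.4% of probe sets) and 3 of 5 against the OCK ko clones (Sox2, Klf4 1417394_at and Myc; 51.1%). The Klf4 call with 1417394_at in the last comparison was lost without OCK ko clone 1 (−0.76, adjusted p = 0.294, limma, the highest over its alternatives). Of the 3 calls Myc alone passed without that clone, together with Klf4 1417395_at, which then reached 0.91 (adjusted p = 0.0171, limma, against 0.0171 to 0.918 over its alternatives). Over culture time 4 of 5 passed (30.5% of probe sets, 3776 rising and 3840 falling, or 3142 and 5046 after median centring), with 1417395_at at 0.038 ± 0.014 per day (adjusted p = 0.0692, limma). None passed without day 11, Klf4 1417394_at and Myc did not pass without day 15, and none passed in a line through the 5 day means, where wt and ko arrays of a day count once.

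**Figure D4:**
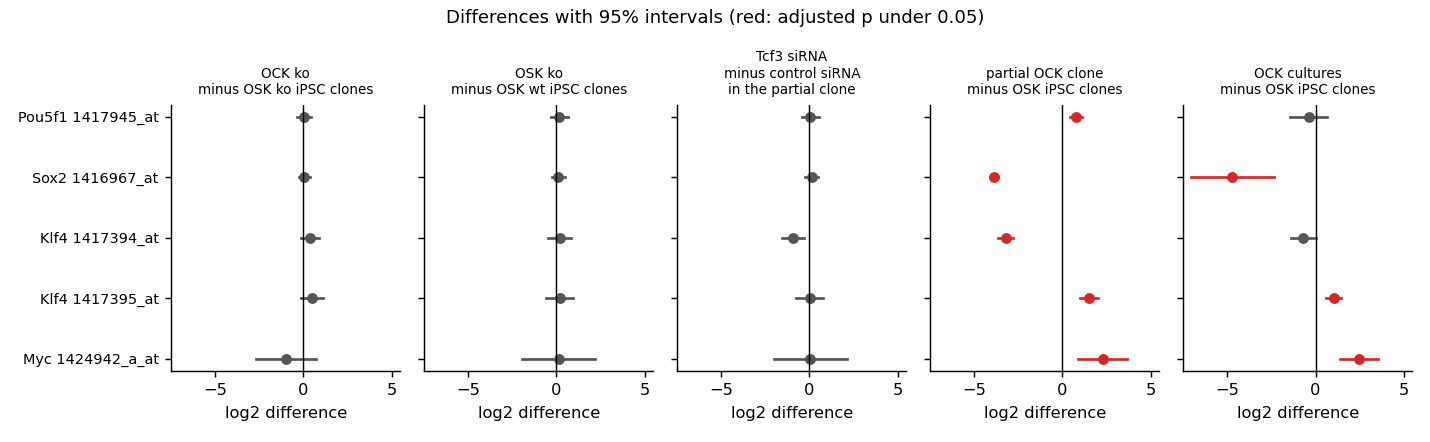
Log2 differences (x axis) of the 5 probe sets (y axis) in 5 comparisons, 1 per panel, with 95% intervals from limma as bars and red for an adjusted p under 0.05. No member is red in the first 3 panels, all 5 are red for the partial clone against the OSK clones, and 3 are red for the cultures against the OSK clones.

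Loss of Tcf3 did not give a called change of any member. In the cultures 0 of 5 passed between ko and wt with day as a block (limma; 0 of 5 at an unadjusted p under 0.05), where 0% of probe sets passed and 903 were under an unadjusted 0.05. The differences lay between −0.048 for Klf4 1417394_at and 0.089 for Sox2. The slopes did not separate either (0 of 5, against 0% of probe sets and 371 under an unadjusted 0.05). Plain limma over the whole table called 0 probe sets in both as well, with 1114 and 546 under an unadjusted 0.05. Between the OSK ko and wt clones, where 0.31% of probe sets passed, the members differed by 0.10 to 0.18 and 0 of 5 passed, with intervals for Pou5f1 from −0.34 to 0.64 and for Sox2 from −0.27 to 0.47.

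After Tcf3 siRNA 0 of 5 members passed (limma; 1 at an unadjusted p under 0.05, and 0 of 5 in all 9 alternatives), and 0.0639% of probe sets did. The nearest was Klf4 1417394_at, which read 7.83 and 7.81 with the siRNAs and 8.76 with the control, a difference of −0.94 ± 0.26 (unadjusted p = 0.0104, adjusted p = 0.264, limma, with an adjusted p from 0.152 to 0.608 over the alternatives). Only 0.891% of probe sets differed by as much. The other Klf4 probe set differed by 0.019, and the pair diverged by −0.96 ± 0.15 (adjusted p = 0.473, limma; 0 pairs passed and 0.279% were as large). That pair test was added after the values had been seen.

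Known targets of Oct4 and Sox2 were below their level in the OSK clones where Pou5f1 itself was at its highest. Lists of relatives and targets were read with 1 probe set per gene, the one with the highest mean. The target list holds every pluripotency marker named above, so its counts are not separate from the stage that those markers show. Of the targets, 11 of 11 tested were lower in the partial clone than in the OSK clones (median −3.57), where 62.4% of all genes were called and the median over all genes was −0.055. The largest were Zfp42, at least 6.79 lower because it was at the floor on all 3 partial clone arrays, Nanog at −5.95 ± 0.14, Esrrb at −5.65 or lower (at the floor on 2 of the 3 arrays) and Sall4 at −4.72 ± 0.11. Others stayed well above the floor in the partial clone. With control siRNA, siRNA A and siRNA B, Fgf4 read 10.28, 10.33 and 10.09 and Dppa5a 10.58, 10.84 and 10.99. In the cultures 11 of 11 were lower (median −4.58), where again 62.4% of all genes were called. With days 22 and 26 alone it was 11 of 11, at a median of −3.31. Over time 8 of 11 rose and 0 fell, against 34.7% of all genes called, led by Dppa5a at 0.385 ± 0.028 and Fbxo15 at 0.311 ± 0.045 per day (1 culture array at the floor). Without day 15 it was 7 of 11, and without day 11 no gene of the table passed.

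The Klf relatives, several of which share targets with Klf4 in ES cells, were more often lower than higher in the partial clone and the cultures, and all genes too were more often lower (4880 against 3490 higher in the partial clone, 5047 against 3647 in the cultures). In the partial clone 7 of 12 tested were lower than in the OSK clones and 3 higher, against 62.4% of all genes called. Klf2, which acts with Klf4 and Klf5 in ES cells, was at −3.91 and Klf15 at −3.40 or lower (at the floor on 2 of the 3 arrays), while Klf7 was higher by 2.41 and Klf3 by 2.27. In the cultures 8 of 12 were lower and 3 higher (62.4% of all genes called), or 6 and 4 with days 22 and 26 alone, among them Klf5 at −4.21 ± 0.53 and Klf2 at −3.87 ± 0.35. Over time 4 of 12 rose (34.7% of all genes called), with Klf5 the fastest at 0.159 ± 0.028 per day. Without day 15 only 1 of 12 rose.

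Among the Sox relatives 4 of 14 tested were higher and 3 lower in the partial clone than in the OSK clones, which is no more than the 62.4% of all genes called there. Sox1, a neural gene of the same subgroup as Sox2, was higher by 3.52 ± 0.14 and Sox11 by 2.49 ± 0.16, while Sox15 was at −2.71 or lower, being at the floor on all 3 partial clone arrays. In the cultures 2 of 13 were higher and 3 lower, again under the 62.4% of all genes. Among them Sox9 was higher by at least 2.11, being at the floor on all 3 OSK clones, and Sox15 was at −2.55 or lower, with 5 of the 10 culture arrays at the floor. Over time 5 of 11 rose and 1 fell (34.7% of all genes called), among them Sox1 at 0.310 ± 0.046 per day with 3 culture arrays at the floor, alongside the neural markers given above. Without day 15, 3 of 11 rose. With culture days 22 and 26 alone, 4 of 13 were higher and 3 lower than in the OSK clones. Of the POU relatives, 2 of 6 tested were higher and 1 lower in the partial clone (62.4% of all genes called), 1 of 7 was higher in the cultures (62.4%) and 1 of 7 (Pou3f3, at 0.137 per day with 2 culture arrays at the floor) rose over time (34.7%), though 0 of 7 without day 15. On days 22 and 26 alone 3 of 7 were higher than in the OSK clones.

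Myc targets of growth passed about as often as all genes did against the OSK clones. In the partial clone 2 of 12 were higher than in the OSK clones and 5 lower (62.4% of all genes called, also more often lower), among them Odc1, the enzyme that starts polyamine synthesis, at −0.98 ± 0.10, and Bop1, a ribosome assembly factor, at −0.83 ± 0.10. In the cultures 1 of 12 was higher and 7 lower (62.4% of all genes called), with Odc1 at −1.27 ± 0.28 and Cad, an enzyme of pyrimidine synthesis, at −1.09 ± 0.32. Over time 9 of 12 rose and 0 fell (34.7% of all genes called), led by the nucleolar proteins Nop56 at 0.094 ± 0.023 and Nop58 at 0.091 ± 0.021 per day. Without day 15 only 1 of 12 rose.

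Among the Myc relatives the direction of Mycn depended on the probe set. Of the Max network, 6 of 10 were higher and 2 lower in the partial clone than in the OSK clones (62.4% of all genes called), with Mycn at 6.68 ± 0.80 and Mxd4, a Max partner that opposes Myc, higher by at least 4.03, being at the floor on 2 of the 3 OSK clones. In the cultures 3 of 10 were higher and 4 lower (62.4% of all genes called), with Mycn at 6.38 ± 0.45 and Mxd4 higher by at least 4.16. With days 22 and 26 alone 5 were higher and 3 lower. Over time 3 of 10 rose and 2 fell (34.7% of all genes called), or 3 and 1 without day 15. Mycn was singled out after its values had been seen.

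Its probe set 1425923_at read 7.78 in the OSK wt clone and 7.001 and 8.52 in the OSK ko clones. It read from 13.73 to 14.49 on all 10 culture arrays and 14.45, 14.45 and 14.44 in the partial clone. The OCK ko clones were between and apart, with 8.76 in clone 1 and 11.87 in clone 2, the clone in which the Myc probe set was also above the floor. The other 2 Mycn probe sets were high in the established clones. 1417155_at read 10.93 to 11.61 there, 8.10, 8.88 and 8.92 in the partial clone, and from the floor on day 11 to 8.48 and 8.91 on day 26. 1425922_a_at read 7.65 to 8.89 in the established clones, 5.80, 5.9997 and 5.79 in the partial clone and the floor on every culture array up to day 19.

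In the partial clone against the OSK clones, 1417155_at and 1425922_a_at differed by −2.54 ± 0.072 and −2.25 ± 0.13 (adjusted p = 2.89e-06 and 2.83e-05, limma), while 1425923_at was higher by 6.68 ± 0.80 (adjusted p = 0.000542, limma). Their pairs with 1425923_at diverged by −9.22 and −8.93, the largest divergences of all 7879 pairs. Across the 18 arrays 1425923_at correlated with the Myc probe set at r = 0.852 and with Klf4 1417395_at at r = 0.785, while 1417155_at correlated with Sox2 at r = 0.945. These correlations describe arrays that fall into stages and are given with no test. The labels name OCK only by its letters, and which sequence each probe set reads is not analysed here.

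**Figure D5:**
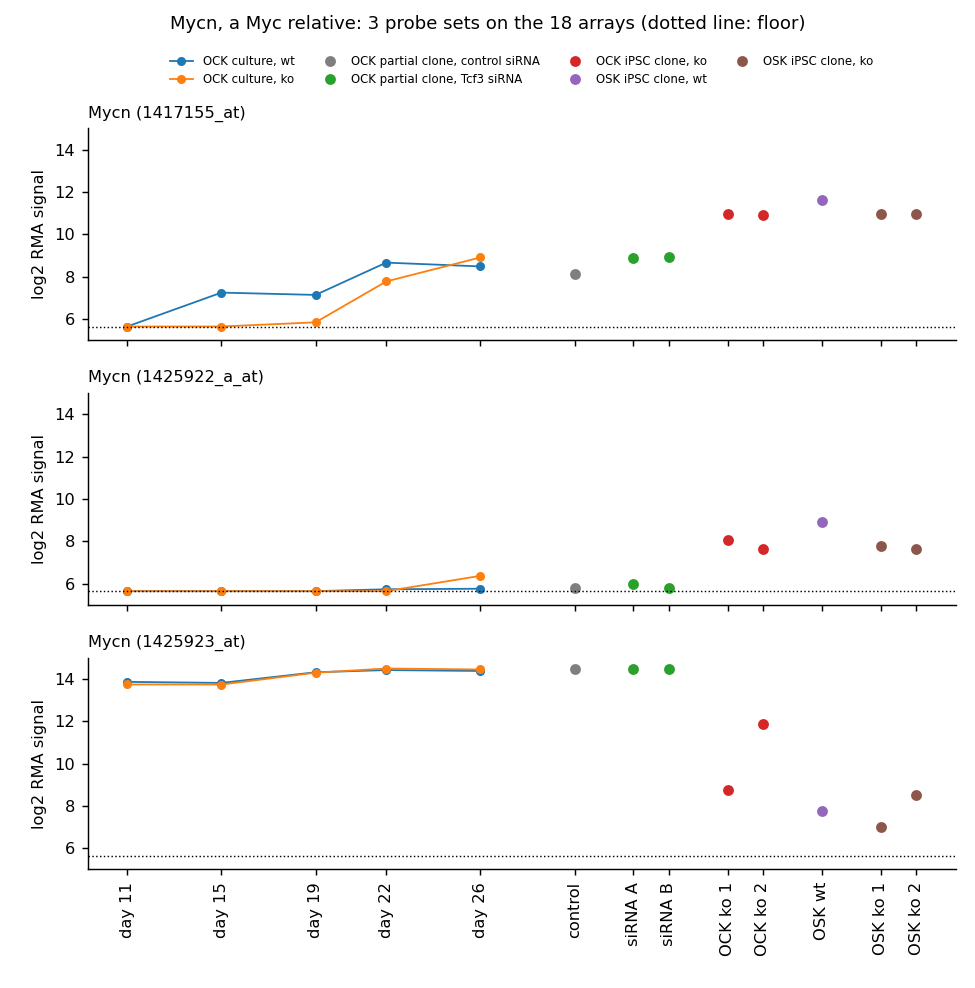
Log2 RMA signal (y axis) of the 3 Mycn probe sets on the 18 arrays (x axis as culture days, partial clone arrays and established clones; 1 point per array, dotted line at the floor of 5.64). 1425923_at lies from 13.73 to 14.49 on the cultures and the partial clone and from 7.001 to 11.87 on the established clones. The other 2 probe sets are higher on the established clones than on the cultures and the partial clone.

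Genes known to silence retroviral sequences in pluripotent cells were read as well, although the labels name no vector. They were lower in both OCK stages than in the OSK clones: 7 of 9 tested in the partial clone and 8 of 9 in the cultures, with 0 higher in either, where 62.4% of all genes were called in each and more of them lower than higher. The de novo DNA methyltransferase Dnmt3b was at −2.83 ± 0.37 in the partial clone and −3.21 ± 0.64 in the cultures, and Trim28, the corepressor recruited to retroviral sequences, at −1.17 ± 0.076 and −1.54 ± 0.21. With days 22 and 26 alone it was 8 of 9 again (63.3% of all genes called). Over time 5 of 9 rose (34.7% of all genes called), led by Dnmt3b at 0.180 ± 0.033 per day. Without day 15 it was 4 of 9.

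Between the established OCK and OSK ko clones, where 8.83% of all genes passed, 9 of the 74 tested relatives and targets did (12.2%). Of the Oct4 and Sox2 targets 1 of 11 was higher, Fbxo15 by 0.99 ± 0.18. Of the Klf relatives 0 were higher and 3 of 13 lower, Klf12, Klf15 and Klf13, and of the Sox relatives 1 of 12 was higher, Sox3, and 3 lower, Sox11, Sox4 and Sox12. Of the silencing genes 1 of 9 was lower, Dnmt3a at −1.72 ± 0.35. Of the 12 Myc targets, the 10 genes of the Max network and the 7 POU relatives 0 passed (limma). Without OCK ko clone 1 the counts were 1 of 11 targets, 4 of 13 Klf relatives, 4 of 12 Sox relatives, 3 of 12 Myc targets, 2 of 10 of the Max network, 2 of 9 silencing genes and 0 of 5 POU relatives (limma), where 17.3% of all genes passed. Without clone 2, where 23.4% of all genes passed, they were 4 of 11, 7 of 12, 5 of 12, 0 of 12, 2 of 10, 3 of 9 and 1 of 7.

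Each member was followed most closely by a different set of genes. Over the 18 arrays and 12448 genes, the Sox2 probe set was most like Suz12 (r = 0.982) and Cbx2 (r = 0.978), both Polycomb proteins, then Tdgf1, Usp7 and Dppa5a. Pou5f1 was most like Pkp4 (r = 0.972), AI467606, Ptpn4, Psma7 and the nucleolar gene Nop56. Klf4 1417395_at was most like Zcrb1 (r = 0.971), Cnot6l, Obi1, Vamp4 and Rpp14. Klf4 1417394_at, added to the rule after the divergence was seen, was most like Rasl11b (r = 0.982), Ap2a2, Bach1, Smad6 and Radil, none of them shared with the other Klf4 probe set. Myc was most like Bag2 (r = 0.953), Lpar6, Gstp1, Hmga2 and Zfp629. Among the members themselves r was −0.72 between the 2 Klf4 probe sets and 0.68 between Klf4 1417395_at and Myc. The arrays share stages, so r describes these arrays and is no test.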

How the data were processed

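The authors' deposited table held a log2 value for each probe set and array, made with RMA per the submitters' processing notes, which name no version. The floor is seen in the values: between 45% and 47% of each array lay on it. Names came from the platform annotation, and 40508 probe sets gave 17903 genes with a single symbol. The members and lists were chosen with earlier results of these data known, as was the variance model. All probe sets went through limma 3.58.1 (R 4.3.3), and p-values adjusted by Benjamini-Hochberg were called under 0.05. The prior variance was taken from probe sets that no array of a fit had at the floor; floored ones got at least that variance, and those at the floor on all compared arrays were not tested. The 8 clone arrays shared a fit with a mean per group, so lone arrays are assumed to vary like the others. The cultures with the 5 established clones made a fit of 15 arrays with a single mean for all cultures, so its errors include change over the days. The 10 culture arrays made a fit with day as a block or a slope per genotype. Pairs of probe sets were tested on their difference within an array. Genes named from lists passed the test with the largest differences, at most 4 per list, and like genes were the 5 with the highest Pearson r among genes above the floor on at least 9 arrays. The code was tested on simulated data.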

Additional observations from a re-analysis of the deposited data

Results flagged for a closer look

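Loss of Tcf3 went with opposite directions of Klf4 probe set 1417394_at in 2 settings. Each of the OSK ko clones was above the OSK wt clone, by 0.18 on average (log2), while each siRNA array of the partial clone was below its control, by 0.94 on average (a difference of −0.94). The difference between these effects was −1.12 ± 0.37 (unadjusted p = 0.0219, adjusted p = 0.373, limma), which 1.42% of probe sets equalled or passed and which was not called. Each effect rests on a single control array. The wt and ko cultures, the groups with 5 arrays, were tested for a lone high or low array in each of the 5 probe sets, and 0 of these 10 sets of values had one. The clones and siRNA arrays are too few for that test.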

How the results depend on the processing

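Of the 10 comparisons and 6 pair tests, the calls for Pou5f1, Sox2 and both Klf4 probe sets in the partial clone against the OSK clones held in every alternative tried (plain limma, probe sets above the floor only, quantile normalization, centring, other samples in the fit, arrays left out), apart from the sign of 1417395_at when a gene's probe sets were averaged. That averaging gave Klf4 differences of −0.46 (siRNA), −0.85 (partial clone against OSK), −1.34 (partial clone against OCK ko) and −0.31 (cultures against OCK ko), and slopes of −0.026 per day and −0.012 (ko minus wt), each the reverse of 1417395_at. With culture days 22 and 26 alone, Pou5f1 was at 0.42 against OSK and 0.33 against OCK ko, and 5 members passed against OSK in place of 3. Plain limma over the whole table left 2 members passing in the partial clone against OCK ko and 2 for the change per day. Only probe sets above the floor left 1 member passing in the cultures against OSK and 1 against OCK ko, since Sox2 and Myc are then not tested. A line through the day means left 0 members passing. The change per day of the Klf4 pair missed the threshold with an unmoderated error (−0.128, adjusted p = 0.104, limma).

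With 1 array left out, the ko clone comparison called 0 to 3 members. Its differences ranged from −0.19 to 0.27 for Pou5f1 (−0.051 without OSK ko clone 2), −0.029 to 0.15 for Sox2 and −2.21 to 0.24 for Myc. Myc after siRNA lay between −0.023 and 0.13. With 1 day left out, ko minus wt lay between −0.086 and 0.13 for Pou5f1, −0.15 and 0.34 for Sox2, −0.11 and 0.049 for Klf4 1417394_at, and −0.089 and 0.075 for Myc (0.049 without day 11), and the change per day called 0 to 4 members. The Klf4 pair lay between −1.67 and −1.51 for the cultures against OCK ko, and between −0.201 and −0.106 for the change per day. Why these values moved was not tested.

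Clone numbers did not pair the samples: deviations of same-numbered ko clones correlated at −0.116. With the clone number as a replicate block, 0 members passed between OCK and OSK ko clones and 225 probe sets did in place of 1771, and with crossed numbers 49. The numbers of siRNA arrays, cultures and clones give no other paired analysis. Centring used the median of the 17057 probe sets above the floor on every array and moved it by at most 0.066. Counts over all probe sets moved more. For the OCK and OSK ko clones, 1771 calls became 281 in plain limma, 388 with only the arrays compared, 3477 or 4777 without an OCK ko clone and 10 or 4 without an OSK ko clone. For OSK ko against wt, 71 became 209, 885 and, without a ko clone, 0, and 13 among probe sets above the floor. For the siRNAs, 15 became 497 in plain limma and 0 with a siRNA left out, only the arrays compared or probe sets above the floor. For the change per day, 7616 became 2924 in plain limma, 193 through day means, 0 without day 11 and 2623 without day 15. The number of arrays and the floor limit what could be seen.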
